A study of Mus musculus with 4 samples.

Results

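The genes of the DNA methylation machinery followed here were the methyltransferase genes Dnmt3a, Dnmt3b, Dnmt3l and Dnmt1, together with Uhrf1. They were taken by gene symbol, and each of the 5 names matched 1 of the 46320 gene identifiers in both RNA-seq tables. RNA came from the prefrontal cortex of female F1 mice, 14 weeks of age, with the strain label C57BL6J/Spretus. All mice carried a mutation of the noncoding RNA Xist on the maternal allele, and no mice without it were analysed here. The Spretus allele is taken as paternal and the C57 allele as maternal, from the order of the strains in that label. There were 2 RNA-seq libraries and 2 MethylC-seq libraries, and tissue of individuals from separate litters was pooled, per the labels' protocols. The design holds no treated and untreated groups. The comparisons it allows are the Spretus allele against the C57 allele within each library, and library 1 against library 2. Separate animals for each library are not stated in any label. The p-values of the allelic fits therefore reflect at most how far these libraries spread, possibly for technical reasons. Those of Fisher's exact test, used between libraries, treat reads as units and reflect counting error alone.

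DNA methyltransferases add a methyl group to cytosine. Dnmt3a and Dnmt3b encode de novo enzymes, and Dnmt3a is known as the enzyme that writes non-CG methylation in maturing neurons, while Dnmt3b is best known from early embryos. Dnmt3l encodes a relative without catalytic activity that stimulates the de novo enzymes in germ cells. Dnmt1 encodes the maintenance enzyme, which copies CG methylation onto the new strand after replication, and Uhrf1 encodes the protein that binds hemimethylated CG sites and brings Dnmt1 to them. Adult cortical neurons no longer divide.

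The DNA in front of the genes' starts holds CG sites, the motif that these enzymes can methylate. Their number differs between starts, also within a gene. Whether these sites are methylated was not analysed here. RefSeq (GRCm38.p6) lists 12 starts for the 5 genes, and the 250 bases before a start are shown for 5 of them, with CG sites in capitals. They show a CG-dense start (Dnmt3a), a start of a gene with almost no RNA that is also CG-rich (Dnmt3b), a start of intermediate density (Uhrf1) and a pair of CG-poorer starts of Dnmt1. Uhrf1 and Dnmt1 also have CG-richer starts, not shown, so these windows do not rank the genes. Each is written 5′ to 3′ on the gene's strand.
Dnmt3a, chr12:3806730-3806979, plus strand: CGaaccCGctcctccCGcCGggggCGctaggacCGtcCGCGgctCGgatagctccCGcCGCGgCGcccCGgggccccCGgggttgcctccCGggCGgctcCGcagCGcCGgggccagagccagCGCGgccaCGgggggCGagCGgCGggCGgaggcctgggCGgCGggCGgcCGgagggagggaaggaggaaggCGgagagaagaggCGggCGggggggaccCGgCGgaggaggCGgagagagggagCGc
Dnmt3b, chr2:153649199-153649448, plus strand: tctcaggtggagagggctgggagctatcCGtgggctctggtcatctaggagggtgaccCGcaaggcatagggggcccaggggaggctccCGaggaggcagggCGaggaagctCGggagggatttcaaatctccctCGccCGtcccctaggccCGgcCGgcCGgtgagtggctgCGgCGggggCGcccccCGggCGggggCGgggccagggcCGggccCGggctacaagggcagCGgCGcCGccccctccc
Uhrf1, chr17:56303087-56303336, plus strand: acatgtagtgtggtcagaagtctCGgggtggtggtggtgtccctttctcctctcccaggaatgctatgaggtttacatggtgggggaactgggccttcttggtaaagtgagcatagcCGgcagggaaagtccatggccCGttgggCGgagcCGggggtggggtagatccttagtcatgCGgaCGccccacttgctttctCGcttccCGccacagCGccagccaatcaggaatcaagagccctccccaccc
Dnmt1 upstream start, chr9:20959889-20960138, minus strand: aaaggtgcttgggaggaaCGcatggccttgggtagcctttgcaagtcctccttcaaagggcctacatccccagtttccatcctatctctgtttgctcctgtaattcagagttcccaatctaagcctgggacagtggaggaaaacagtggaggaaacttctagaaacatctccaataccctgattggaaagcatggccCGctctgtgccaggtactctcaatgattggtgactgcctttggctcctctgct
Dnmt1 internal start, chr9:20952980-20953229, minus strand: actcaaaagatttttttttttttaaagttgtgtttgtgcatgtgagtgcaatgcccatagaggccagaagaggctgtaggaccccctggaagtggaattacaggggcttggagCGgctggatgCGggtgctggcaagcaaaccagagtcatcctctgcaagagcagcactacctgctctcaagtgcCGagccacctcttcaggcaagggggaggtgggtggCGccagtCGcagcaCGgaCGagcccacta

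The Dnmt3a window held 38 CG sites, more than 98.1% of 32851 RefSeq windows of the same length. The other Dnmt3a windows, not shown, held 40 and 15, the smaller number being more than 72.7% of all windows held. The Dnmt3b window held 21 and the Uhrf1 window 10, and a second Uhrf1 window, not shown, held 30. The Dnmt1 windows held 2 at the upstream start and 7 at the internal start, and a further Dnmt1 start inside the gene had 26. The 3 Dnmt3l windows, not shown, held 3 to 5. The motif CG reads the same on both strands, 92.1% of all windows held it at least once, and the median was 6 sites (interquartile range 2 to 16). The RNA tables do not say which start was used.

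Reads that could be assigned to an allele numbered 4768237 in library 1 and 1291903 in library 2. FPKM values (fragments scaled to transcript length and library total, both alleles together) stood on different scales. The 10 highest genes took 42.6% of the FPKM sum in library 1 and 90.1% in library 2, and among 8970 genes with at least 1 FPKM in both libraries the median ratio of library 1 to library 2 was 5.62. Levels are therefore given per library, with ranks. The neuronal markers Rbfox3, Snap25, Syt1 and Map2 all stood above 1 FPKM in both libraries, from 61.2 to 1016 FPKM in library 1 and from 12.4 to 225 FPKM in library 2. The choroid plexus markers Ttr, Kl and Folr1 stood between 0.327 and 1.27 FPKM in library 1 and between 0.0898 and 0.828 FPKM in library 2.

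Among the members, RNA was found in quantity for one de novo and one maintenance enzyme. Dnmt3a and Dnmt1 were above 1 FPKM in both libraries, and Dnmt3b, Dnmt3l and Uhrf1 were below 0.3 FPKM in both. The gap between these sets was wide in each library. No gene of the lower set reached the level of a gene of the higher set in either library.

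Dnmt3a (ENSMUSG00000020661.14, chromosome 12, 3806007 to 3914443) had the highest level of the family, with 19.7 FPKM in library 1 and 5.05 FPKM in library 2. It ranked 4139 of 15101 genes with at least 1 FPKM in library 1 and 2809 of 9029 in library 2, which is 27.4% and 31.1% from the top. Its level was 2.26 times the median of such genes in library 1 and 1.66 times in library 2. It thus lay in the upper part of expressed genes in both libraries, but not among the highest.

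Dnmt1 (ENSMUSG00000004099.14, chromosome 9, 20907206 to 20959888) followed with 10.0 FPKM in library 1 and 1.96 FPKM in library 2. It ranked 6974 of 15101 genes in library 1 and 6288 of 9029 in library 2, or 46.2% and 69.6% from the top. The RNA of the maintenance enzyme was near the middle of expressed genes in library 1, at 1.16 times their median, and below the middle in library 2, at 0.643 times. The number of genes above 1 FPKM differed between the libraries. Among genes above 0 FPKM Dnmt1 stood 27.0% from the top in library 1 and 28.6% in library 2. Dnmt3a stood at 16.0% and 12.8% on that count.

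Within a library, where the scale cancels, the FPKM of Dnmt3a was 1.96 times that of Dnmt1 in library 1 and 2.58 times in library 2. Dnmt3a thus stood above Dnmt1 in both libraries by FPKM. Allele-assigned reads are not per length and count only reads that could be assigned to an allele. How large a part of each gene's reads that is was not analysed. They were 1.11 times as many for Dnmt3a as for Dnmt1 in library 1 (628 and 565). In library 2 they were 0.762 times as many (112 and 147), so by reads the order turned between the libraries. With 2 libraries of 1 group, neither order was tested.

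**Figure D1:**
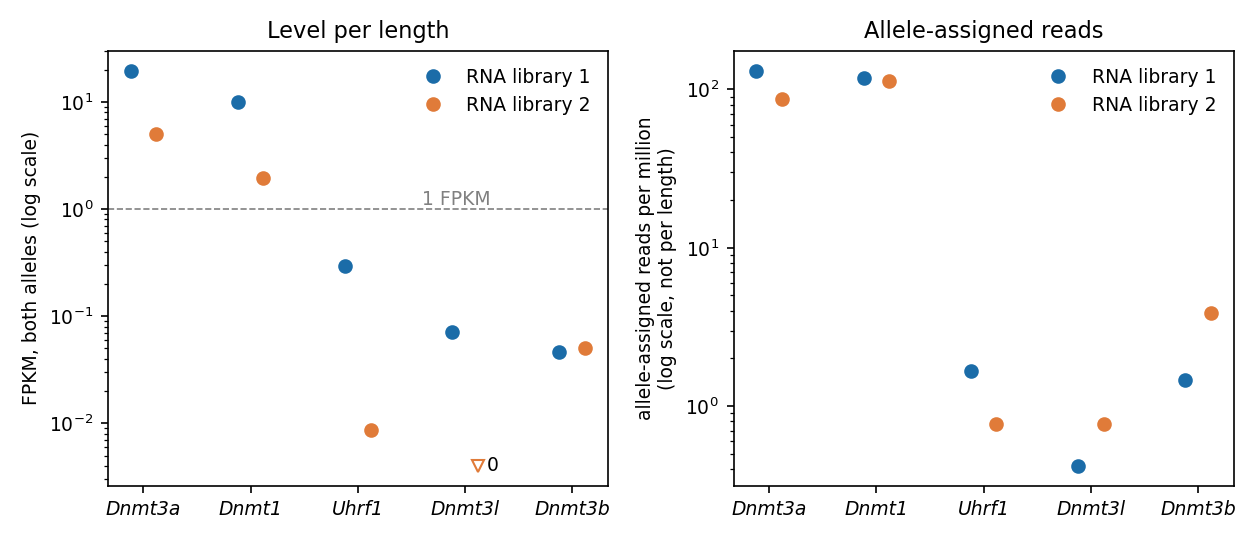
Levels of the 5 genes in each RNA library, as FPKM on a log axis (left) and as allele-assigned reads scaled to the library total (RPM) on a log axis (right). Points are single libraries, the dashed line marks 1 FPKM and the open triangle a value listed at 0. Dnmt3a and Dnmt1 lie above 1 FPKM in both libraries and the other genes below 0.3 FPKM.

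Uhrf1 (ENSMUSG00000001228.13, chromosome 17, 56303321 to 56323486) had 0.295 FPKM in library 1 and 0.00873 FPKM in library 2. It was carried by 8 allele-assigned reads in library 1 and 1 in library 2. Dnmt1 FPKM was 34.0 and 225 times that of Uhrf1 in libraries 1 and 2, so the RNA of the maintenance enzyme stood far above that of its recruiting factor. With so few reads these multiples carry a large counting error.

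Dnmt3b (ENSMUSG00000027478.14, chromosome 2, 153649450 to 153687730) had 0.0466 FPKM in library 1 and 0.0504 FPKM in library 2, with 7 and 5 allele-assigned reads. Dnmt3a FPKM was 422 and 100.2 times that of Dnmt3b. Dnmt3l (ENSMUSG00000000730.12, chromosome 10, 78041947 to 78063622) had 0.0707 FPKM in library 1 and was listed at 0 in library 2, with 2 reads and 1 read assigned to an allele. Uhrf1, Dnmt3b and Dnmt3l lay below all 3 choroid plexus markers in both libraries.

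The order of the lower genes was not stable. It was Uhrf1, Dnmt3l, Dnmt3b from high to low in library 1 and Dnmt3b, Uhrf1, Dnmt3l in library 2, so these 3 neighbours could not be ranked at this depth. Whether such reads are RNA of rare cells or background was not tested. In bulk tissue, fewer cells of a type and less RNA per cell cannot be told apart.

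**Figure D2:**
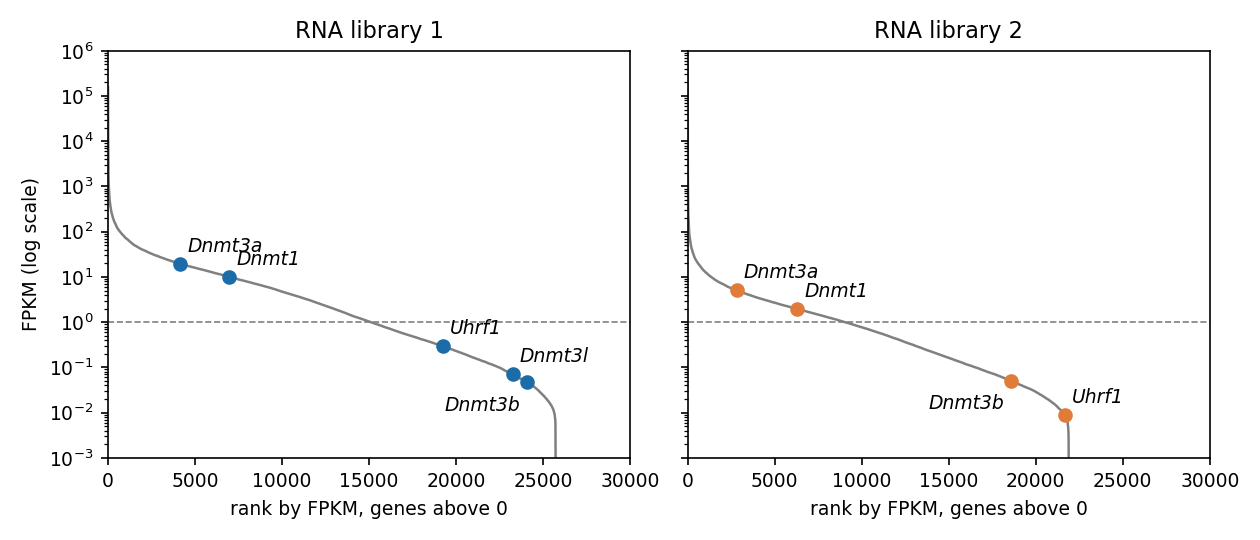
All genes above 0 FPKM ordered from high to low in each RNA library (grey line, FPKM on a log axis against rank), with the members as points and 1 FPKM as a dashed line. Dnmt3a and Dnmt1 lie on the upper slope and Uhrf1, Dnmt3l and Dnmt3b in the tail. Dnmt3l, at 0 in library 2, is not drawn there.

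Other loci overlapped the members little. The antisense gene Dnmt3aos inside Dnmt3a had 0.109 and 0.0474 FPKM and no allele-assigned reads. Dnmt3bos at Dnmt3b, Aire at Dnmt3l and Mir7081 inside Dnmt1 were listed at 0 FPKM in both libraries with no allele-assigned reads. No listed gene overlapped Uhrf1. Whether counting used strand is not given in the sources used here.

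Dnmt3a and Dnmt1 were read from both parental alleles, with Spretus shares close to the autosomal share. For Dnmt3a, 312 Spretus against 316 C57 reads were counted in library 1, and 61 against 51 in library 2, a Spretus share of 49.7% and 54.5%. For Dnmt1, the counts were 264 Spretus against 301 C57 in library 1 and 70 against 77 in library 2, a Spretus share of 46.7% and 47.6%. The mean share was 52.1 ± 3.38% for Dnmt3a and 47.2 ± 0.632% for Dnmt1 (SD, n = 2). Over summed reads the Spretus share was 50.4% for Dnmt3a (exact 95% interval 46.7 to 54.1%) and 46.9% for Dnmt1 (43.2 to 50.7%). These intervals overlapped each other, and both held the autosomal share of 47.9% in library 1 and 48.0% in library 2.

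Autosomal genes with a like number of reads give the spread at that depth. Among 1368 genes with 592 to 925 summed reads, the middle 90% ran from 41.1 to 53.8% Spretus, and 75.1% of them lay below Dnmt3a. Among 1406 genes with 570 to 890 reads, it ran from 41.1 to 54.0%, and 36.1% of them lay below Dnmt1. The summed share of each member lay inside its range.

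Neither gene was called by the quasi-likelihood test of edgeR, with p adjusted by Benjamini-Hochberg over 11981 genes. In it the reads of each allele were scaled by their own total, unlike in the raw shares above. The log2 ratio of Spretus over C57 was 0.19 for Dnmt3a (SE 0.21, 95% interval -0.27 to 0.66, adjusted p = 0.753) and -0.04 for Dnmt1 (SE 0.16, 95% interval -0.39 to 0.31, adjusted p = 0.950). At unadjusted p below 0.05 the count was also 0 of 2, against 18.2% of all genes and 15.4% of autosomal genes, and DESeq2 called 0 of 2. The edgeR test called 8.55% of all genes and 5.43% of autosomal genes, and DESeq2 called 5.41% and 2.20%. Both alleles were read in 1 library each time, which pairs them. A fit that blocks on the library called 25.0% of all genes and 22.5% of autosomal genes and 0 of 2 members. In it Dnmt3a had a log2 ratio of 0.16 (95% interval -0.03 to 0.35, adjusted p = 0.299) and Dnmt1 of -0.05 (-0.24 to 0.14, adjusted p = 0.809) in edgeR's test. The absence of a call says no more than these intervals.

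No difference in share between the libraries was detectable at this depth. It differed by -4.78 percentage points between library 1 and library 2 for Dnmt3a (Fisher's exact test, two-sided, p = 0.358, adjusted p = 1 over all genes) and by -0.893 points for Dnmt1 (p = 0.853, adjusted p = 1). That test called 0 of 11981 genes, with 291 at unadjusted p below 0.05.

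The other members had too few reads to give a share. Dnmt3b had 2 Spretus against 5 C57 reads in library 1 and 4 against 1 in library 2, a summed share of 50.0% with an exact 95% interval of 21.1 to 78.9%. Uhrf1 had 3 Spretus against 5 C57 reads in library 1 and 1 against 0 in library 2, with an interval of 13.7 to 78.8%. Dnmt3l had 3 Spretus reads in all and none from C57, with an interval of 29.2 to 100%. None of these 3 genes reached the 10 reads per library that the test required, so 2 of 5 members were tested. Intervals cover counting error alone.

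**Figure D3:**
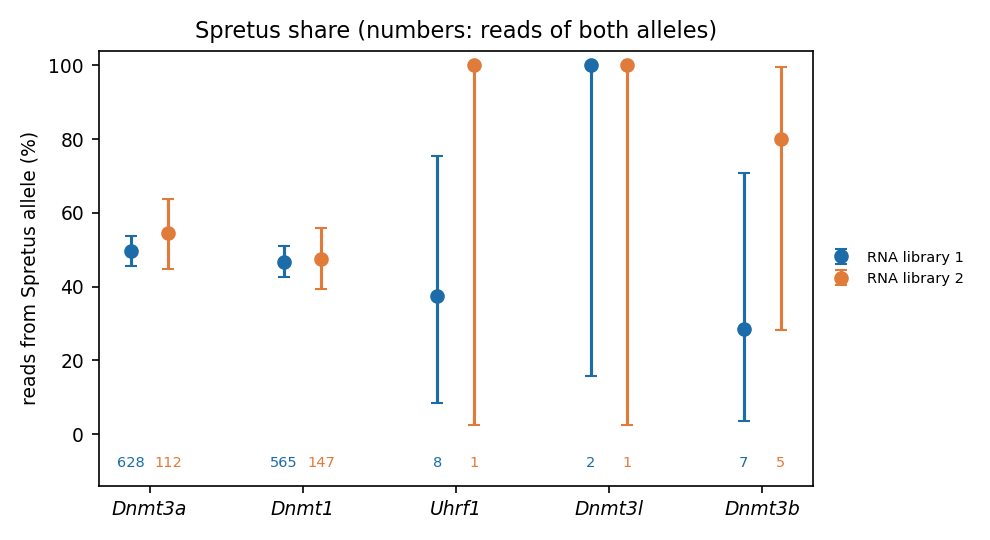
Share of allele-assigned reads from the Spretus allele (percent) of each member in each RNA library. Bars are exact 95% intervals, and the numbers are the reads of both alleles. Dnmt3a and Dnmt1 lie between 46.7 and 54.5%, and the bars of Uhrf1, Dnmt3l and Dnmt3b span most of the range.

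The libraries placed Dnmt3a differently by FPKM and by reads. Divided by the median ratio of all genes, the FPKM ratio of library 1 to library 2 was 0.692 for Dnmt3a and 0.911 for Dnmt1. Among the 8970 genes, 7.42% had a lower ratio than Dnmt3a and 33.4% a lower ratio than Dnmt1. In RPM, Dnmt3a had 132 in library 1 and 86.7 in library 2, a ratio of 1.52 (95% counting interval 1.24 to 1.87), and Dnmt1 had 118 and 114, a ratio of 1.04 (0.867 to 1.26). Among 10372 genes with at least 100 reads, 89.7% had a lower read ratio than Dnmt3a and 40.6% a lower one than Dnmt1. Dnmt3a was therefore relatively low in library 1 by FPKM and relatively high there by reads, while Dnmt1 lay near the middle by both. Each side of the ratio is 1 library, so neither value has a replicate check.

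Marker levels differed between the libraries too. All 4 pan-neuronal markers had a scaled ratio below 1, from 0.693 to 0.875, with summed levels of 1987 FPKM in library 1 and 452 FPKM in library 2. Markers of neuron types were mixed. Of 4 excitatory markers 3 lay below 1 and Slc17a7 above it, over a range of 0.680 to 1.31, with sums of 690 and 117 FPKM. Of 3 inhibitory markers Gad2 lay below 1 and the other two above it, over a range of 0.866 to 1.30, with sums of 163 and 25.7 FPKM. All 4 oligodendrocyte markers had one above 1, from 1.54 to 1.82, with sums of 560 and 56.8 FPKM, and all 3 blood markers had one from 2.06 to 2.96, with sums of 917 and 72.3 FPKM. All 5 astrocyte markers lay from 1.06 to 1.33, and all 3 choroid plexus markers from 0.251 to 0.766. Both oligodendrocyte precursor markers lay above 1 (1.04 and 1.31). Other lists held markers on both sides of 1. These were microglia (0.854 to 1.39), endothelium (0.913 to 1.46), neuroblast (0.692 to 1.34) and striatum (0.815 to 1.60). The part of all these markers in the ratios of Dnmt3a and Dnmt1 was not tested.

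**Figure D4:**
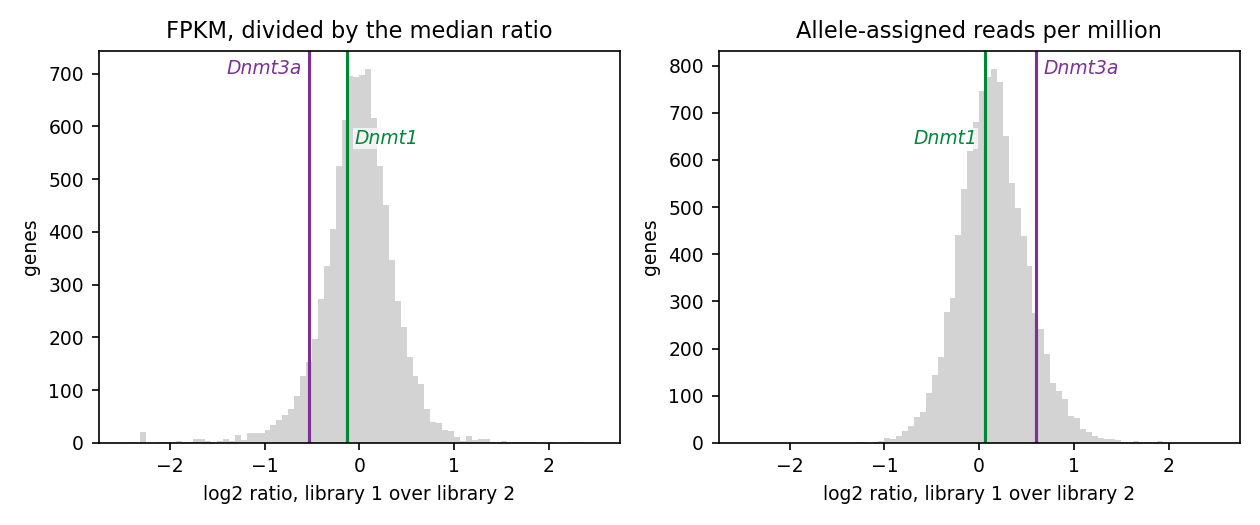
Distribution over genes of the log2 ratio of library 1 over library 2, from FPKM divided by the median ratio (left, 8970 genes) and from RPM (right, genes with at least 100 reads). Vertical lines mark Dnmt3a and Dnmt1. Dnmt3a lies left of the middle in FPKM and right of it in reads, and Dnmt1 lies near the centre of both.

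The genes most like each expressed member in level and allelic share were named by distance over 3 values, the log2 FPKM of each library and the Spretus share, each divided by its SD over 7799 genes. For Dnmt3a these were Nras, Chd8 and Ppp1r10, with 18.5 to 20.1 FPKM in library 1, 4.87 to 5.34 FPKM in library 2 and shares of 50.3 to 51.0%. For Dnmt1 they were Zfand2b, Rpa1 and Csnk1g3, with 9.82 to 10.2 FPKM in library 1, 1.95 to 1.97 FPKM in library 2 and shares of 46.3 to 47.4%. The likeness rests on 2 libraries and is a description of level only.

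Partners of the maintenance enzyme were present at very unequal levels, and Uhrf1 lay below their median in both libraries. Of 11 listed genes, 4 were above 1 FPKM in both libraries, with list medians of 3.58 FPKM in library 1 and 0.729 FPKM in library 2. Usp7, a deubiquitinase that binds Dnmt1 and Uhrf1, was highest with 57.5 and 12.1 FPKM, above Dnmt3a in both libraries. Dppa3, a germline and oocyte gene, was listed at 0. The paralogue Uhrf2, named after its values were seen, had 18.5 FPKM in library 1 and 2.13 FPKM in library 2, which is 62.7 and 244 times the level of Uhrf1. Its Spretus share was 46.4%, and its log2 ratio of -0.02 was not called (edgeR, adjusted p = 0.989).

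Genes of dividing cells were low too. Of 15 proliferation genes, 1 was above 1 FPKM in both libraries, namely Mcm7, a subunit of the replicative helicase, with 9.48 and 1.70 FPKM. The list medians were 0.977 and 0.123 FPKM, and none stood above Dnmt1 in both libraries. Cdk1, the kinase that drives mitosis, was lowest with 0.130 FPKM in library 1 and 0 in library 2. Uhrf1 was thus below the list median in both libraries and Dnmt1 above all 15 genes.

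Factors that guide or read methylation were mostly above 1 FPKM in both libraries. Of 16 chromatin partners, among them histone methyltransferases and heterochromatin proteins, 14 were above 1 FPKM in both libraries and 7 stood above Dnmt3a in both. Atrx, a chromatin remodeller, was highest with 73.6 and 17.2 FPKM, and Suv39h2, a histone H3 lysine methyltransferase, lowest with 1.21 and 0.226 FPKM. Of 10 genes listed as methyl-DNA readers, 8 were above 1 FPKM in both libraries and 2 stood above Dnmt3a in both. Mbd5, a gene of the methyl-CpG-binding domain family, had the highest mean with 38.8 and 8.16 FPKM, although Zbtb4, named after its values were seen, was higher in library 1 with 39.8 FPKM. Mbd4, a glycosylase, was lowest with 2.73 and 0.525 FPKM.

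Genes of the methyl donor cycle, which makes and recycles S-adenosylmethionine, spanned a wide range. Of 12 genes, 6 were above 1 FPKM in both libraries. Mat2b, the regulatory subunit of methionine adenosyltransferase, was highest with 72.7 and 12.8 FPKM, and Bhmt, known from liver, lowest with 0 and 0.00741 FPKM. Trdmt1, the family relative that methylates transfer RNA, had 2.13 and 0.724 FPKM, below Dnmt1 and above Dnmt3b in both libraries.

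**Figure D5:**
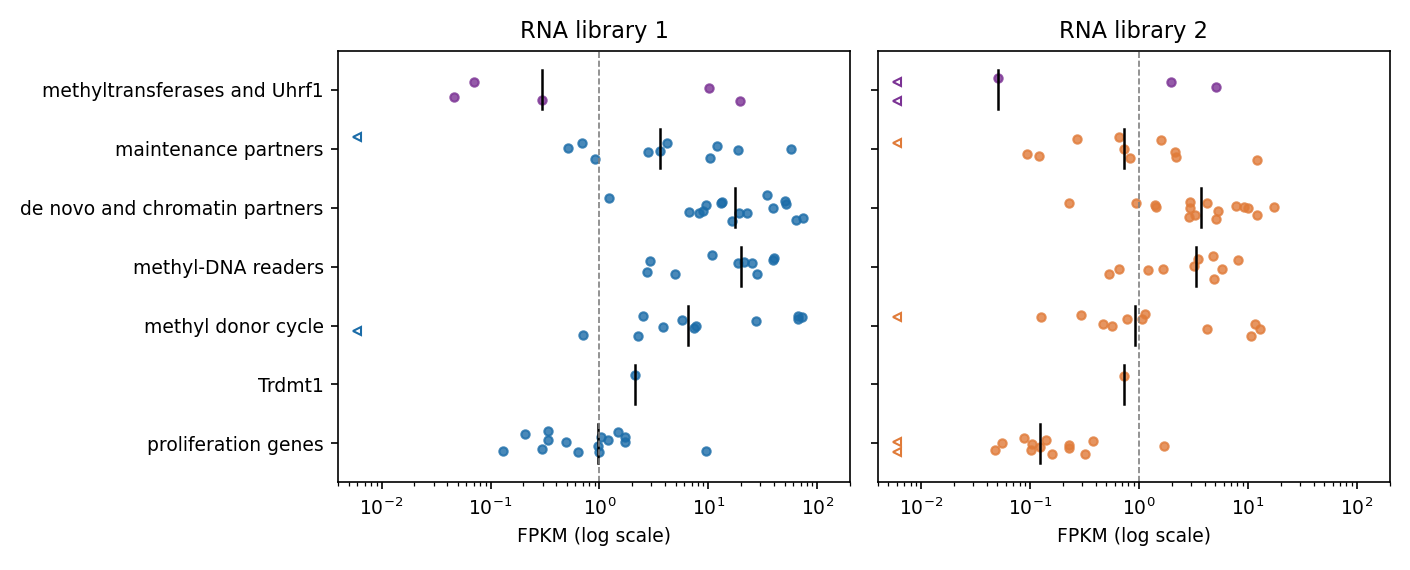
FPKM on a log axis of the members (purple, top) and of 6 lists of related genes in each RNA library. Points are genes, black bars are medians, left-pointing open triangles are values below 0.01 FPKM and the dashed line marks 1 FPKM. Dnmt3a and Dnmt1 lie among the partners and readers, and the other members lie with or below the proliferation genes.

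Allelic calls among the related autosomal genes lay near the share over all autosomal genes. Of 44 tested in the 6 lists, 2 were called toward Spretus and 0 toward C57 by edgeR's test, against 5.43% of autosomal genes, with 5 at unadjusted p below 0.05, against 15.4%, and 1 called by DESeq2, against 2.20%. The median log2 ratio was 0.03 over the lists and 0.02 over all autosomal genes. Mbd1, a methyl-DNA reader, had 227 Spretus against 142 C57 reads in library 1 and 53 against 32 in library 2, with a log2 ratio of 0.82 (edgeR, SE 0.18, adjusted p = 0.0114; DESeq2 did not call it, adjusted p = 0.256). Mcm7 had 123 Spretus against 40 C57 reads in library 1 and 30 against 11 in library 2, with a log2 ratio of 1.70 (edgeR, SE 0.26, adjusted p = 8.03e-04). When blocked on the library, 10 were called toward Spretus and 1 toward C57, against 22.5% of autosomal genes. The X-linked genes Atrx, Suv39h1 and Zbtb33 had Spretus shares of 0 to 0.763% and were called toward C57. This is not particular to them. Of all 11981 genes tested 1024 were called, and of the 11584 outside the X 629 were, so nearly every X-linked gene tested was called. All 5 members lie on autosomes.

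No listed region of allelic methylation difference lay at any member. The authors' list held 1600 regions with a level for each allele, 1006 of them on autosomes, and 0 overlapped a member locus, lay within 2 kb of one or within 100 kb. Nor did any region overlap the 12 windows before the RefSeq starts. Among 8652 autosomal genes with at least 1 FPKM in both libraries, 2.95% had a region within 2 kb and 13.7% within 100 kb. The list gives no level for loci outside it, so methylation of the member loci themselves was not analysed here.

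In the authors' deposited table, the nearest region to Uhrf1 lay 371 kb away (chr17:55931906-55932543, mm10), overlapped no listed gene and had methylation levels of 0.825 on the Spretus allele and 0.137 on the C57 allele. The same authors' deposited table put the nearest region to Dnmt3l at 527 kb, overlapping 2810425M01Rik and Fam207a, with 0.950 on Spretus and 0.0800 on C57. For Dnmt3a the nearest in the authors' deposited table lay at 545 kb, overlapping Ncoa1, was 12 bp long and had 0 on Spretus and 0.985 on C57. For Dnmt3b it lay at 948 kb, overlapping the imprinted gene H13, and for Dnmt1 at 4056 kb. These distances bracket the median of 645 kb over expressed autosomal genes.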

How the data were processed

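The submitters' processing notes name HTSeq 0.6.0, TopHat2 2.0.9, bedtools 2.2.4, Cufflinks 2.1.1 and, as genome build, mm10, with no role for each. The authors' RNA tables hold, per the file headers, 1 FPKM value per gene and library and raw counts of the Spretus and C57 reads. Their list of regions gives an allele's methylation as a deposited fraction. The sources used here give neither its coverage nor its calling thresholds. Identifiers at several loci (49) were used once, and 1 was added to gene starts. The members and lists were chosen with earlier results of these data known.

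Allelic counts were tested with edgeR 4.0.16 in R 4.3.3 (glmQLFit and glmQLFTest, TMM scaling, allele as the only term) for genes that had 10 or more assigned reads per library, with Benjamini-Hochberg adjustment and a threshold of 0.05. The prior degrees of freedom were 9.34 and the residual 2. With the library as a block they were 32.7 and 1. The scripts were tested on simulated counts drawn independently for each allele and library, without the pairing of alleles seen in the data. That test therefore cannot tell which of these fits is better here. Alternatives were the library as a block and DESeq2 1.42.0, besides others of scaling and filtering. The library number pairs the alleles by design, and deviations of the 2 alleles had a correlation of 0.599 over 7565 genes. Shares have exact Clopper-Pearson 95% intervals. Named list genes were the highest and lowest by mean FPKM and those called, of which 1 is not reported here. Nsd2, Nsd3 and Pclaf stand in the tables as Whsc1, Whsc1l1 and 2810417H13Rik.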

Additional observations from a re-analysis of the deposited data

How the results depend on the processing

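Neither Dnmt3a nor Dnmt1 was called with the library block, DESeq2, its size factors in edgeR or a shared library total. Nor was either called with no count filter or at least 50 reads. The sign of each log2 ratio stayed the same throughout. The number of genes called over the whole table was 1024, and it became 2999 with the library as a block, which pairs the alleles of a library, 648 with DESeq2, 1808 with no count filter and 351 with at least 50 reads in each library. Log2 ratios of Spretus over C57 from single libraries, scaled as in the main fit and with no test, ran from 0.12 to 0.37 for Dnmt3a. For Dnmt1 they ran from -0.05 to -0.03. Raw reads of Dnmt3a in library 1 were 312 Spretus against 316 C57, so its ratio there is above 0 only after scaling. When the alleles shared a library's total, the autosomal median moved from 0.02 to -0.11, and relative to the median Dnmt3a stood at 0.17 under both scalings and Dnmt1 at -0.06. The Spretus share in single libraries ran from 49.7 to 54.5% for Dnmt3a and from 46.7 to 47.6% for Dnmt1.

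The rank, as percent from the top averaged over libraries, was 29.3 for Dnmt3a and 57.9 for Dnmt1 among genes of at least 1 FPKM. It was 17.7 and 34.5 among genes of at least 0.1 FPKM and 14.4 and 27.8 among genes above 0 FPKM, since more low genes are then counted. In single libraries it ran from 27.4 to 31.1 and from 46.2 to 69.6. The scaled ratio of library 1 to library 2 depended on the scale. For Dnmt3a it was 0.692 by the median ratio, 4.02 by the FPKM sum, 1.05 by total reads and 1.52 in allele-assigned reads scaled to the library total (RPM). For Dnmt1 it was 0.911, 5.29 by the FPKM sum and 1.39 by total reads. Dnmt3a over Dnmt1 averaged 2.27 in FPKM, from 1.96 to 2.58 in single libraries. In allele-assigned reads, which are a part of all reads and not per length, it averaged 0.937 (1.11 in library 1 and 0.762 in library 2). The cause of these changes was not tested. Precision is limited by 112 and 147 reads of Dnmt3a and Dnmt1 in library 2.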

Other observations

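FPKM and allele-assigned reads placed many genes on opposite sides of the middle when library 1 was set against library 2. Of 8201 genes with at least 1 FPKM and 10 reads in both libraries, 2911 (35.5%) lay above the median ratio by one measure and below it by the other, as Dnmt3a did. Across these genes, which are not independent replicates and share both libraries, the log2 ratios had a Pearson correlation of 0.312. A gap between the measures as large as that of Dnmt3a, in the same direction or the other, was seen in 1.83% of these genes.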
